A study of Mus musculus with 36 samples.

Results

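The 12 hours between 6 and 18 hr post induction (hpi) were examined in B cells carrying C/EBPα R35A, a form of the myeloid transcription factor C/EBPα in which arginine 35 is replaced by alanine. The interval is covered by 4 of the 36 RNA-seq libraries of the study, chosen by construct and timepoint: 2 R35A libraries at 6 hpi and 2 at 18 hpi. All 36 libraries came from bone marrow B cells of C57BL/6J mice, infected with a retrovirus that carries C/EBPα fused to the estrogen receptor (ER) and a human CD4 tag, and enriched for hCD4+ cells. They were grown on inactivated mouse embryonic fibroblast (MEF) feeders, which the labels state were taken out by differential adherence before RNA extraction. At 6 and 18 hpi the cultures had received 100 nM estradiol (E2), which moves the ER fusion into the nucleus, together with IL-7, IL-3, FLT-3, mCSF-1 and mSCF. The factor is overexpressed from a virus, in addition to the cells' own Cebpa gene. For comparison, 2 libraries each at 6 and 18 hpi of cells with wild-type C/EBPα and of cells with R35K, where lysine replaces arginine 35, had the same background and treatment.

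B cell to macrophage transdifferentiation (BMT) is the conversion of committed B cell precursors into macrophage-like cells by forced C/EBPα activity. C/EBPα acts with PU.1, the product of Spi1, which both B cells and macrophages use. During the conversion the B cell program, held in place by Pax5 and Ebf1, is shut down. Cell cycle genes go down at first, and genes for adhesion, phagocytosis and inflammatory signaling are turned on.

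Expression is given as CPM, the depth-scaled read count of a gene after TMM correction of the library sizes, and changes as log2 fold changes (log2FC) of 18 over 6 hpi, so that positive values are higher at 18 hpi. A gene was called where edgeR's quasi-likelihood test, with Benjamini-Hochberg adjustment over all 16988 genes tested, gave p up to 0.05 and the change was at least 1.5-fold in either direction. The 4 R35A libraries held between 15252871 and 20580185 counts. Their replicates lay close together, with a common coefficient of variation of 3.17% in the fit of the 24 wild-type and R35A libraries, though each pair differed by more than sampling noise. The wild-type library of replicate 1 at 6 hpi stood apart through CT010467.1, Mir6236 and Lars2, at 7093, 727 and 1506 CPM against 195, 22.4 and 73.0 CPM in the other replicate. No R35A library was set apart in this way.

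The labels call the cells B cells at both timepoints, and the R35A libraries held transcripts of several cell types. Cd79b, a signaling chain of the B cell receptor, was at 86.5 and 82.7 CPM at 6 hpi against a mean of 519.3 CPM at 0 hpi. Lyz2, the lysozyme gene of macrophages and granulocytes, was already at 2434 and 2439 CPM at 6 hpi against 34.4 CPM at 0 hpi. The fibroblast list, with 28 tested genes, summed to 28980 and 29070 CPM at 6 hpi and to 28960 and 29050 CPM at 18 hpi, and Fn1, the fibronectin gene, made up 8390 to 8752 CPM of it. The sum was therefore level over the interval, 0 of the 28 genes were called, and the median log2FC of the list was −0.09. By adjusted p alone, 7 of the 28 were higher and 13 lower, so single genes shifted within the level sum. In the wild-type cells the sum went from 35060 and 36050 CPM to 40030 and 39330 CPM. Defining genes of other lineages were without a read in all 4 R35A libraries, namely Cd3e and Cd3g of T cells, Ncr1 and Nkg7 of natural killer cells, and Cpa3, Tpsb2 and Fcer1a of mast cells. Other members of these lists were present. The mast cell and basophil list summed to 49.8 and 50.2 CPM at 6 hpi and 39.5 and 41.9 CPM at 18 hpi, with the basophil protease Mcpt8 at 32.4 and 31.3 and then 22.2 and 25.0 CPM. The T cell list summed to between 43.5 and 46.3 CPM in the 4 libraries, most of it from Cd28, at 28.7 to 33.6 CPM, and the natural killer list to between 1.30 and 3.60 CPM. In bulk RNA, fewer cells of a type and less RNA per cell cannot be told apart, which holds for every result below.

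Between 6 and 18 hpi, 258 genes rose and 469 fell in R35A cells, together 4.28% of the genes tested, with 1.52% higher and 2.76% lower. Every list count below is to be read beside these 2 shares. The changes were small for the most part. The median size among the 727 called genes was 0.88 on the log2 scale, and 78 risen and 192 fallen genes were past 2-fold. Without the fold threshold, 1785 genes (10.5%) were higher and 1638 (9.64%) lower. The groups did not overlap in CPM for 59.2% of all genes tested, so separation of the 4 libraries alone says little of a single gene.

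Set among the other intervals of R35A cells, that from 6 to 18 hpi held more called genes than those just before it and fewer than the first and the last. From 0 to 1 hpi 6329 genes (37.3%) were called, and from 18 to 120 hpi 9164 genes (53.9%). Between 1 and 3 hpi 94 genes (0.553%) were called, 69 of them higher (0.406%) and 25 lower (0.147%). Between 3 and 6 hpi these were 30 genes (0.177%), with 8 higher (0.0471%) and 22 lower (0.13%). The intervals differ in length and neighbors share libraries, so these are counts side by side. The R35A libraries labelled 1, 3 and 6 hpi were thus nearly alike while those labelled 0 and 1 hpi were far apart. The samples are taken as labelled, which was not tested otherwise, and the meaning of the 6 hpi values rests on it.

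**Figure D1:**
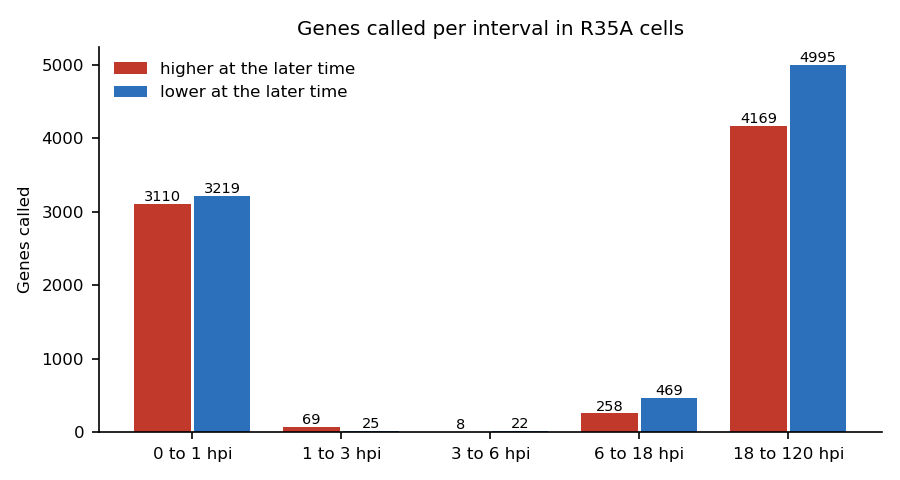
Number of genes called (adjusted p of at most 0.05 and at least 1.5-fold) in each interval between sampled timepoints in R35A cells, higher (red) and lower (blue) at the later time, 2 libraries per timepoint. The bars for 6 to 18 hpi stand at 258 and 469, above the 8 and 22 of 3 to 6 hpi and far below those of 0 to 1 and 18 to 120 hpi.

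Genes were ranked among called genes with non-overlapping groups and a mean of at least 5 CPM in the higher group. Symbols that are Gm numbers, Rik clone names, Ensembl numbers or pseudogene names were left out. The largest rise among the genes ranked was that of Ms4a8a, a membrane protein gene of the MS4A family (mm10 chromosome 19, 11067471 to 11081102). It was at 1.86 and 2.35 CPM at 6 hpi and at 8.07 and 8.86 CPM at 18 hpi, a log2FC of 1.99 (SE 0.18, adjusted p = 1.97e-12). Il1a, encoding the cytokine interleukin 1 alpha, went from 2.88 and 2.54 to 9.63 and 7.30 CPM (log2FC 1.63, SE 0.18). Cxcl3, a neutrophil-attracting chemokine gene, went from 13.7 and 11.8 to 37.1 and 38.7 CPM (log2FC 1.59, SE 0.091). In each of these the lower 18 hpi library was well over the higher 6 hpi library. Fcgr4, an activating IgG receptor gene, rose by a log2FC of 1.56, Arg1, the arginine-degrading enzyme of alternatively activated macrophages, by 1.45, and Cdh1, the E-cadherin gene, by 1.33. Cd5l, a secreted macrophage protein gene, Cd244, an immune cell receptor gene, and Dner, a Notch ligand gene, followed at 1.23, 1.15 and 1.13.

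By the CPM gained, the order among the genes ranked was different. Mmp8, a neutrophil collagenase gene, went from 426.6 and 425.9 to 862.8 and 846.9 CPM, the largest gain (log2FC 1.00, SE 0.037). Apoe, the lipid carrier of macrophages, went from 332.8 and 324.2 to 599.9 and 625.0 CPM (log2FC 0.90). Bhlhe40, Ier3 and Ifitm1 came next, with log2FC of 0.59, 0.99 and 0.78. Bhlhe40 lies close to the threshold, at 0.57 on the log2 scale without replicate 2 at 18 hpi and 0.58 without replicate 2 at 6 hpi or with DESeq2's size factors, and is not called in these.

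Il12a, encoding a subunit of interleukins 12 and 35, fell the most among the genes ranked. It was at 7.85 and 6.83 CPM at 6 hpi and at 1.63 and 1.97 CPM at 18 hpi (log2FC −2.0, SE 0.18, adjusted p = 1.79e-12). Fcrls, an Fc receptor-like gene of myeloid cells, went from 6.83 and 7.20 to 2.15 and 1.61 CPM (log2FC −1.93, SE 0.17). Kit, the receptor for the SCF of the medium, went from 13.1 and 11.8 to 3.84 and 3.63 CPM (log2FC −1.73, SE 0.13). Ipcef1, Clgn, Cecr2, Ppp1r16b, Alpl, Adgrg1 and Serpinb1a made up the other of the 10 lowest, at log2FC between −1.89 and −1.46. Cecr2, a chromatin remodeling factor gene, was at 98.3 and 96.0 CPM and then at 31.4 and 29.5 CPM, so its libraries differed by far less within than between timepoints. The largest losses in CPM among the genes ranked were those of Ighm, the immunoglobulin heavy chain of the pre-B cell receptor, from 451.1 and 460.1 to 177.9 and 185.8 CPM, and of Mki67, the proliferation antigen Ki-67, from 242.2 and 243.7 to 124.7 and 123.5 CPM. Lgals9, Dgkd and Cecr2 followed.

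**Figure D2:**
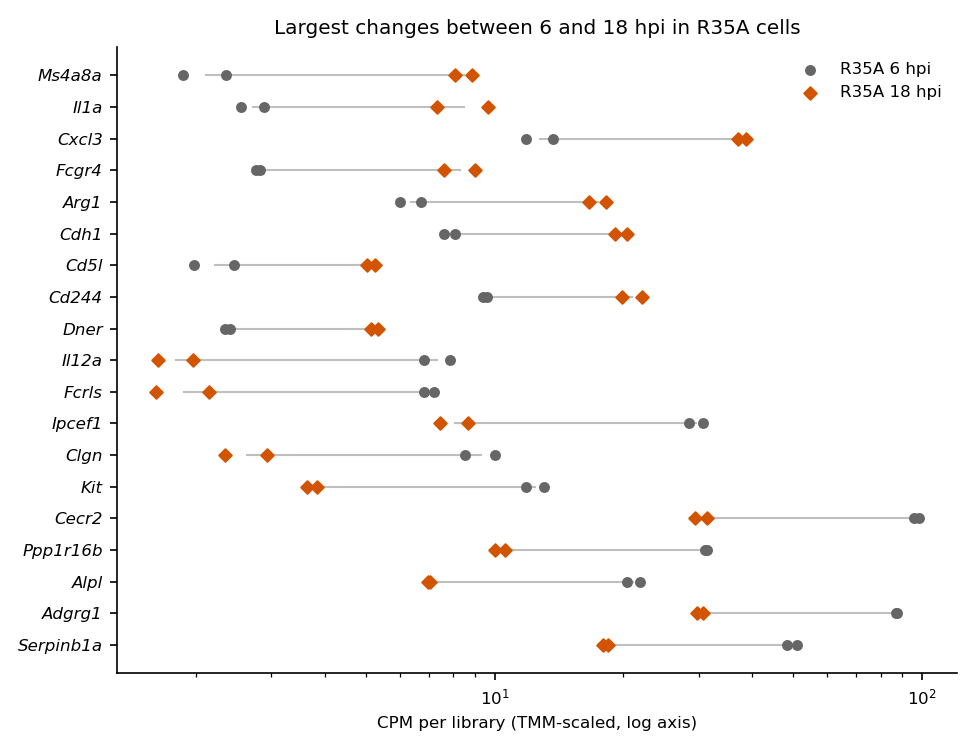
CPM (log axis) of 9 of the 10 genes with the highest log2 fold change among those ranked and the 10 with the lowest. Values are at 6 hpi (gray circles) and 18 hpi (orange diamonds) in R35A cells, each point 1 library and the gray line joining the group means. In each of the 19 genes, which were chosen for it, the 2 groups stand apart, as Cecr2 does with 98.3 and 96.0 against 31.4 and 29.5 CPM.

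In the ranking above, Ms4a8a had the largest rise and Il12a the largest fall. Their 300-base start regions are given here from RefSeq on GRCm38.p6, chr19:11081054-11081353 on the minus strand and chr3:68690394-68690693 on the plus strand. They run 5′ to 3′ from 250 bases before the most upstream start to 50 after it, and the capital marks the start base.
Ms4a8a: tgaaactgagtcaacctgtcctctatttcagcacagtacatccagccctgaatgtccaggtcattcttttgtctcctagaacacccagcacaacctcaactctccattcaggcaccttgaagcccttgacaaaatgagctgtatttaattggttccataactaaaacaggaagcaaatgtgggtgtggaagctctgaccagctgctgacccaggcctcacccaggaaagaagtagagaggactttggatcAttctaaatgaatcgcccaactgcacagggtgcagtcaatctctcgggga
Il12a: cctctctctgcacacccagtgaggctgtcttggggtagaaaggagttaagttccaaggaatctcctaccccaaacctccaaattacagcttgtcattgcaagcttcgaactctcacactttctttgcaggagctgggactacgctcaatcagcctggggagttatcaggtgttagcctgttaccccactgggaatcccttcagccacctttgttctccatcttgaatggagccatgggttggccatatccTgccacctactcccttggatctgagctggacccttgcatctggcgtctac
A C/EBP motif written as TTGCNNAA and a PU.1 motif written as GAGGAAGT, searched on both strands, were each found 0 times in these and in the windows of Il1a, Cxcl3, Fcrls and Ipcef1. Of the 27025 start regions of the RefSeq table, 10.7% hold the first and 3.25% the second. The missing match says no more than that these letters are not in these windows.

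Genes of the B cell program fell broadly. Of 20 B cell signature genes that the study names, 16 fell, 0 rose and 4 did not pass the test, with a median log2FC of −1.08 against −0.0012 over all genes tested. The study names these genes for its own analysis of these samples and does not state how they were picked, so the count is not taken as independent evidence of the direction. Cd79b (chromosome 11) went from 86.5 and 82.7 to 34.3 and 34.5 CPM, a log2FC of −1.30 (SE 0.051, adjusted p = 3.49e-26). The changes of the pre-B cell receptor complex lay very near each other, with log2FC of −1.32 for Ighm, −1.30 for Cd79b, −1.28 for its partner chain Cd79a, −1.28 for the surrogate light chain Igll1 and −1.27 for Vpreb1. Of the 29 pre-B and B cell receptor genes tested, 13 fell (44.8%) and 0 rose. Ighd, the IgD heavy chain, fell the furthest of those with at least 1 CPM at 6 hpi, by 1.72 on the log2 scale.

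The transcription factors that hold the B cell state fell less evenly. Of 27 tested, 8 fell (29.6%) and 0 rose. Pax5, the commitment factor (chromosome 4), went from 79.2 and 75.9 to 40.7 and 36.4 CPM, a log2FC of −1.01 (SE 0.051). Its level at 18 hpi was thus far under the 814.4 CPM of 0 hpi and above the 1.55 CPM of 120 hpi. Spib, a PU.1 relative of B cells, fell by 1.31, Erg, an ETS factor, by 1.27, and Lef1, a Wnt pathway factor, by 1.18 on the log2 scale. Ebf1, the partner of Pax5 in commitment, had a log2FC of −0.55 and did not reach the fold threshold, and Foxo1 had −0.33.

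Of 13 V(D)J recombination genes, 4 fell (30.8%) and 0 rose. Rag1, which cuts receptor gene segments, went from 6.83 and 7.25 to 3.06 and 2.95 CPM, and Dntt, which adds bases at the joins, from 9.71 and 8.76 to 5.33 and 5.44 CPM. Rag2 was near the limit of the test, with an adjusted p of 0.0107, and was not called without replicate 1 at 6 hpi (adjusted p = 0.0852) or replicate 2 at 18 hpi (adjusted p = 0.137, edgeR). Of 11 MHC class II genes, 3 fell (27.3%), among them H2-Aa, from 26.5 and 26.4 to 17.3 and 16.7 CPM. Ciita, the activator of these genes, was called at a log2FC of −0.71, and not without replicate 1 at 6 hpi (−0.44) or replicate 1 at 18 hpi (−0.60). Among 24 B cell surface genes, 6 fell (25%) and 2 rose (8.33%). The 2 risers were Cd83, also found on activated myeloid cells (20.2 and 21.9 to 40.1 and 39.1 CPM), and Bst1, an enzyme of B cell precursors and myeloid cells (17.26 and 18.13 to 34.6 and 32.0 CPM).

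Proliferation genes fell broadly and by small amounts. Of 65 mitosis genes tested, 34 fell (52.3%, against 2.76% of all genes) and 0 rose, and without the fold threshold 60 were lower, with a median log2FC of −0.63. Ccnb2, a mitotic cyclin, went from 23.7 and 28.2 to 12.7 and 13.0 CPM (log2FC −1.02, SE 0.083, adjusted p = 2.59e-14). Kif11, the motor that separates spindle poles, went from 43.4 and 46.7 to 24.4 and 21.4 CPM, and Troap, a spindle protein, from 7.49 and 6.97 to 3.12 and 3.78 CPM. Among the members that were not called, Plk1 was at a log2FC of −0.41, Cdk1 at −0.27 and Pttg1 at 0.08. DNA replication genes moved less, with 11 of 50 lower, 0 higher and a median of −0.35. Cdc6, a licensing factor, fell by 0.94 and Uhrf1, a maintenance methylation factor, by 0.82 on the log2 scale, whereas Pcna, the sliding clamp, stood at −0.21 and Rrm2, a nucleotide reductase subunit, at −0.06. E2f7, E2f8 and Ccna2 fell among 25 G1 cyclins, CDKs, inhibitors and E2F factors, of which 5 fell and 0 rose. The mitosis list summed to 7442 and 7480 CPM at 0 hpi, 1351 and 1343 CPM at 18 hpi, and 2693 and 2811 CPM at 120 hpi. The DNA replication list summed to 7523 and 7564, then 1398 and 1405, then 2262 and 2338 CPM. Both lists thus stood higher at 120 than at 18 hpi.

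Many mitotic genes share a short element near their start, the cell cycle genes homology region (CHR), written as TTTGAA. It is shown here for the named mitosis genes in which it was found, from RefSeq on GRCm38.p6, with capitals for each TTTGAA on either strand and for the start base. The windows are chr9:70421505-70421804 on the minus strand for Ccnb2 and chr19:37376132-37376431 on the plus strand for Kif11.
Ccnb2: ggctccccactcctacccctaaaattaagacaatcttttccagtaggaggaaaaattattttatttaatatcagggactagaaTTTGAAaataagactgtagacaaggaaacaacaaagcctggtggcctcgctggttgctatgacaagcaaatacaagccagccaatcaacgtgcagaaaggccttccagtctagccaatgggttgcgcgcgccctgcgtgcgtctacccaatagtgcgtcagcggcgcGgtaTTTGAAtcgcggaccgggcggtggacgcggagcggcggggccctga
Kif11: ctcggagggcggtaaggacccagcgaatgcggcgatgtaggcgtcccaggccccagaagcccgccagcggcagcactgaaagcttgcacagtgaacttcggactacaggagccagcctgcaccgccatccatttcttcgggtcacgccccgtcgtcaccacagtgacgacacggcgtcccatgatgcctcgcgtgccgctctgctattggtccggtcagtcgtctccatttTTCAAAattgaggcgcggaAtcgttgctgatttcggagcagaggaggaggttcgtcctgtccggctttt
In Ccnb2 a match begins 167 bases before the start and another at position 5 counted from the start base, and in Kif11 a match on the opposite strand, read as TTCAAA, begins 19 bases before it. The window of Troap holds none. Start regions were found for 55 of the 65 mitosis genes, and 39 of these (70.9%) hold TTTGAA, against 4906 of the 27025 regions of the table and 6 of 41 (14.6%) for the DNA replication genes. Among mitosis genes the share was 21 of 29 (72.4%) for those that fell and 18 of 26 (69.2%) for those not called. A match is a description of the letters and not a binding site.

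Macrophage and granulocyte genes rose in part. Of 20 macrophage signature genes that the study names, 6 rose (30%, against 1.52% of all genes), 0 fell and 14 did not pass the test, and without the fold threshold 16 were higher. The same limit holds for this list. Itgam, the Mac-1 integrin subunit (chromosome 7), went from 66.3 and 63.6 to 117.5 and 111.9 CPM, a log2FC of 0.82 (SE 0.045, adjusted p = 1.68e-20). Csf3r, the G-CSF receptor, went from 6.59 and 7.35 to 13.1 and 13.1 CPM. Lyz2 did not rise. It stood at 2434 and 2439 CPM and then at 2299 and 2307 CPM, a log2FC of −0.08 (SE 0.030, adjusted p = 0.0473). Of the 16 monocyte and macrophage markers, 2 rose (12.5%), Itgam and the monocyte antigen Ly6c2, and 0 fell, with a median log2FC of 0.34. By adjusted p alone, 12 were higher and 2 lower. The 16 markers together, with Lyz2 as the largest part, went from 3548 and 3549 to 3670 and 3696 CPM. Mrc1, the mannose receptor, had a log2FC of −0.18. Of the 16 neutrophil granule markers tested, 3 rose (18.8%), Mmp8 and Prtn3 among them, and 0 fell, with a median log2FC of 0.54. By adjusted p alone, 3 of these were higher and 1 lower. Some members had few reads. Elane had 2 and 4 at 6 hpi and 2 and 3 at 18 hpi, and Ltf 2 and 2, then 5 and 9. The log2FC ran from −2.11 to 3.95, and the median includes such members. Lyz2 belongs to both marker lists.

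Surface receptors that tune myeloid activation were the list with the highest share of risers, 12 of 34 (35.3%), with 0 fallen and a median log2FC of 0.48. Cd163, the hemoglobin scavenger receptor of macrophages, had the largest log2FC, 1.97, but few reads, at 0.30 and 0.09 CPM at 6 hpi and 0.59 and 0.88 CPM at 18 hpi. Marco, a scavenger receptor for bacteria, went from 1.08 and 1.32 to 4.68 and 4.30 CPM (log2FC 1.88, SE 0.21). Clec4e and Clec4n, lectins that recognize mycobacterial and fungal glycans, rose by 0.86 and 0.68 on the log2 scale from mean levels of 119 and 192 CPM. Pira2 rose by 1.48, but belongs to a family of near-identical genes between which reads may be split. Of 21 leukocyte adhesion genes tested, 5 rose, including Itgax (0.90) and Itgb7 (0.89), and Itga2 fell (29.7 and 28.2 to 17.8 and 18.7 CPM). Of 23 chemokine receptors, 5 rose (21.7%) and 2 fell (8.7%). C5ar1, the C5a receptor, went from 20.0 and 19.0 to 37.3 and 40.3 CPM, and Fpr1, which senses bacterial formyl peptides, from 3.84 and 3.39 to 6.96 and 6.73 CPM. Cx3cr1, the fractalkine receptor of monocytes, went the other way, from 11.9 and 13.7 to 6.504 and 5.34 CPM (log2FC −1.14, SE 0.12).

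Secreted inflammatory factors were divided. Of 27 cytokine genes tested, 7 rose (25.9%) and 3 fell (11.1%). Tnf went from 45.7 and 43.8 to 86.8 and 89.0 CPM (log2FC 0.98, SE 0.049), and Il18, Il1b, Il1rn, Lif and Gdf15 also rose, by 0.93, 0.67, 0.78, 0.73 and 0.75 on the log2 scale. The fallers were Il12a, Il16, a cytokine gene of lymphocytes (18.7 and 20.6 to 8.65 and 8.49 CPM), and Il23a, which had 9 and 11 reads at 6 hpi and 3 and 2 at 18 hpi and so ended at the detection floor of 3 counts. Spp1, the osteopontin gene and the most abundant of the list at 2831 CPM, had a log2FC of −0.06. Among 21 chemokine genes, Ccl6 went from 163.1 and 158.5 to 334.6 and 336.3 CPM and Ppbp from 38.2 and 38.8 to 74.6 and 76.0 CPM. The 2 chemokine genes that fell, Ccl5 and Ccl22, were near the limit of the test: Ccl5 was not called without replicate 2 at 6 hpi (adjusted p = 0.14), replicate 1 at 18 hpi (0.0519) or replicate 2 at 18 hpi (0.0692), nor Ccl22 without replicate 1 at 6 hpi (0.132, all edgeR).

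Of 31 unfolded protein and stress response genes, 1 rose, Ddit4, and 0 fell, with a median log2FC of −0.04 and, by adjusted p alone, 7 higher and 12 lower. Ddit4 and 3 genes of other lists, Adm, Ankrd37 and Ier3, are given here, chosen after their values were seen. Adm, the adrenomedullin gene induced by hypoxia, went from 30.0 and 29.9 to 53.8 and 54.4 CPM, a log2FC of 0.85 (SE 0.063), against 0.01 in wild-type and 0.02 in R35K cells. Ankrd37, another hypoxia-induced gene, had 0.74 against 0.06 and −0.07. Ddit4, an inhibitor of mTOR signaling, went from 226.4 and 231.7 to 374.6 and 371.5 CPM, and Ier3, an immediate early survival gene, from 191.1 and 191.4 to 382.3 and 376.0 CPM. In wild-type cells Ddit4 had a log2FC of −0.18 and Ier3 of 0.12. The difference from wild type was called for Adm (0.84, adjusted p = 2.87e-09), Ddit4 (0.88, adjusted p = 1.94e-20) and Ier3 (0.86, adjusted p = 2.72e-18, edgeR). No test was made against R35K.

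Of 30 genes of glycolysis and its hypoxia-linked neighbors, 5 rose (16.7%), 0 fell, and 25 were higher without the fold threshold. The 5 were Gapdh, Adm, Ankrd37, Hk3 and Aldoc. The enzymes with high expression moved little, with log2FC of 0.10 for Ldha, 0.16 for Pkm and 0.22 for Eno1. Gapdh had the largest value, from 23.97 and 23.4 to 46.8 and 51.1 CPM, a level far below that of Pkm (1383 CPM), and as many pseudogene copies share its sequence its counts are uncertain. Of 26 cytokine feedback genes, 4 rose (15.4%) and 1 fell (3.85%). Socs3, an inhibitor of JAK-STAT signaling, went from 115.5 and 116.0 to 184.6 and 187.5 CPM, and Nfkbia, the NF-κB inhibitor, from 211.8 and 197.6 to 343.0 and 346.5 CPM. Zfp36, which destabilizes cytokine mRNAs, rose by 0.62 on the log2 scale. Dusp2, a MAP kinase phosphatase gene, was the faller at −0.59 and was not called without replicate 1 at 6 hpi (−0.51) or replicate 2 at 18 hpi (−0.48).

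Genes of lipid handling rose in part, with 5 of 26 higher and 1 lower. Msr1, a scavenger receptor for modified lipoproteins, went from 75.8 and 78.2 to 152.8 and 154.5 CPM (log2FC 1.00, SE 0.041). Fabp5, a fatty acid carrier, rose by 0.83, and Olr1, another oxidized lipoprotein receptor, went from 56.0 and 54.4 to 31.3 and 29.4 CPM. Lysosome genes shifted slightly, with 1 of 64 called, Acp5, while 43 were higher and 0 lower without the fold threshold and the median log2FC was 0.15. Several basic programs had 0 called genes in either direction: 76 ribosomal protein genes, 65 nuclear genes of oxidative phosphorylation, 50 of ribosome biogenesis, 26 of cholesterol synthesis and uptake, 8 of the NADPH oxidase and 8 arginine methyltransferases. By adjusted p alone, 8, 0, 25, 1, 1 and 0 of these were lower and 0, 1, 0, 1, 5 and 0 higher. The ribosome biogenesis list had a median of −0.14.

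Interferon-stimulated genes went down slightly. Of 44 tested, 5 fell (11.4%, against 2.76% of all genes) and 0 rose, with a median log2FC of −0.23. Mx1, an antiviral GTPase, went from 7.43 and 7.02 to 4.62 and 3.52 CPM (log2FC −0.84, SE 0.14, adjusted p = 3.51e-06). Ifit1 and Ifit3 fell by 0.60 each, and Gbp7 and Usp18, both with a log2FC of −0.65, were not called without replicate 1 at 18 hpi (−0.55 and an adjusted p of 0.164 in edgeR). Usp18 was not called without any single one of the 4 libraries, at adjusted p of 0.075 to 0.164. In wild-type cells 3 of the 44 rose and 6 fell, with a median log2FC of −0.08. The difference from wild type was called higher for 6 and lower for 5. In R35K cells 15 of the 44 rose, against 1.12% of all genes, and 0 fell, with Mx1 at 1.03 and Ifit1 at 0.84. The R35K libraries have count tables of their own, and the difference between R35A and R35K was not tested.

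Counts on Cebpa, Spi1 and Carm1 moved little. Cebpa (chromosome 7) was at 60.7 and 57.7 CPM at 6 hpi and at 53.7 and 53.04 CPM at 18 hpi, a log2FC of −0.15 (SE 0.061, adjusted p = 0.0808). Reads of the viral fusion that match Cebpa or Esr1 cannot be told apart from those of the cells' own genes. Esr1 was called lower, from 45.3 and 44.0 to 25.8 and 27.1 CPM (log2FC −0.75, SE 0.062). The level of the fusion itself was therefore not measured. Spi1, encoding PU.1, went from 101.7 and 100.1 to 112.7 and 117.6 CPM, a log2FC of 0.19 (SE 0.044, adjusted p = 0.00089) that is under the fold threshold. Carm1, the methyltransferase that the study places at arginine 35, had a log2FC of −0.01 (SE 0.058, adjusted p = 0.934). Among 54 myeloid transcription factors, 3 rose (5.56%) and 2 fell (3.7%), against 1.52% and 2.76% of all genes. Myb, a progenitor factor, went from 35.4 and 35.3 to 16.2 and 17.2 CPM, and Gfi1, Nr1h3 and Batf had adjusted p between 0.00234 and 0.0159. Gfi1 was not called without replicate 2 at 6 hpi or replicate 1 at 18 hpi (adjusted p = 0.0679 and 0.0631). Batf was not called without the same libraries (0.207 and 0.108), nor Nr1h3 without replicate 1 at 6 hpi or replicate 2 at 18 hpi (0.132 and 0.376, all edgeR).

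The same interval in wild-type cells held 558 risen (3.28%) and 1707 fallen (10%) genes. Of the 469 genes that fell in R35A cells, 371 (79.1%) fell in wild-type cells too, which is 21.7% of the wild-type fallers, and 6 rose. Of the 258 that rose, 80 (31%) rose in wild-type cells, which is 14.3% of the wild-type risers, 6 fell and 172 were not called. Over the 727 genes the log2FC of the constructs had a Pearson correlation of 0.69, a description across genes. The median of the R35A fallers was −0.90 in R35A and −1.66 in wild-type cells, and that of the R35A risers 0.83 and 0.47.

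A test of the difference itself, the change in R35A minus that in wild-type cells, called 1435 genes (8.45%), 1099 higher (6.47%) and 336 lower (1.98%). With DESeq2's size factors, the call was 911 higher and 498 lower, or 64.7% higher against 76.6%. The largest class, 692 of the 1099, fell in wild-type cells and was not called in R35A cells, and 218 fell in both and further in wild type. Among the 336, 141 rose in wild type and were not called in R35A. All 15 B cell signature genes in which the difference was called were on the higher side, as were 61 of the 65 mitosis genes. The wild-type cells began from a higher level. Pax5 was at 223.8 CPM in wild-type and 77.5 CPM in R35A cells at 6 hpi, and at 54.2 and 38.6 CPM at 18 hpi. Mki67 in wild-type cells was at 569.8 CPM and then at 128.7 CPM, next to the 124.7 and 123.5 CPM of R35A cells. Counted over all genes, 2331 (13.7%) differed between the constructs at 6 hpi, 1053 higher (6.2%) and 1278 lower (7.52%) in R35A. At 18 hpi 1711 (10.1%) differed, 1173 higher (6.9%) and 538 lower (3.17%). The level of the fibroblast list rose in wild-type and not in R35A cells, as given above, and its part in the difference was not tested.

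**Figure D3:**
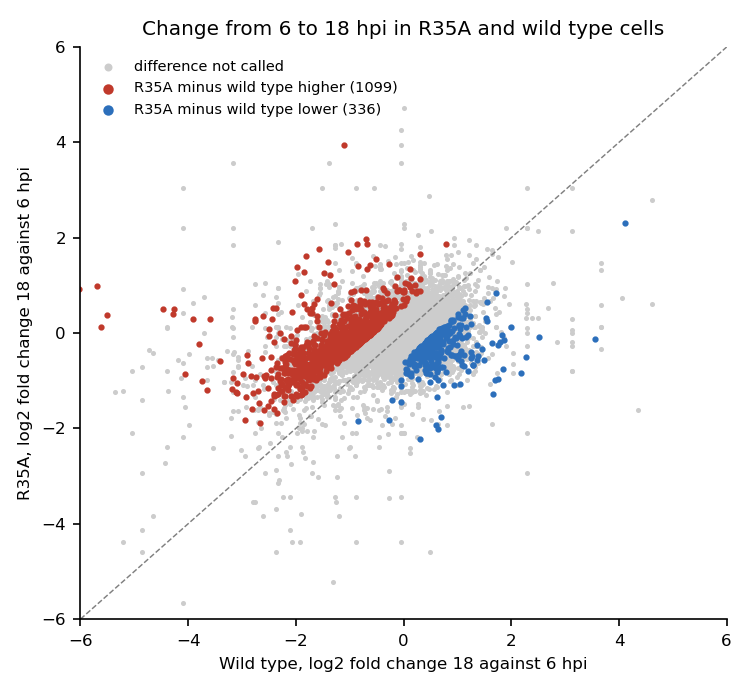
Log2 fold change of 18 over 6 hpi in wild-type cells (horizontal) and R35A cells (vertical) for the genes tested, with 4 genes outside the plotted range of 6 in either direction and the dashed line at equal change. The 1099 genes whose change was higher in R35A (red) lie mostly at negative wild-type values and near 0 for R35A, and the 336 lower ones (blue) lie under the line.

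Some genes changed differently in the 2 constructs, among them Socs3 and Bst1 in opposite directions. Socs3 rose by 0.68 in R35A cells and had −0.99 in wild-type cells, with means of 92.4 and 46.8 CPM (difference 1.67, SE 0.066, adjusted p = 1.18e-25). Bst1 had 0.90 against −0.69 (difference 1.60). Arg1 went up in R35A cells and was not called in wild-type cells (log2FC −0.28), at 0.91 and 0.89 CPM there at 18 hpi (difference 1.72, SE 0.34, adjusted p = 9.17e-05, edgeR). Cdh1 rose in R35A cells to 19.1 and 20.4 CPM and was not called in wild type (log2FC 0.11), at 5.21 and 5.39 CPM there at 18 hpi (difference 1.22, SE 0.18). On the other side, Lyz2 was higher at 18 hpi in wild-type cells, with means of 385.7 and 523.9 CPM (log2FC 0.44), and was not in R35A. The difference was −0.52 (SE 0.044, adjusted p = 5.22e-14, edgeR). Both the wild-type change and the difference for Lyz2 were under the fold threshold and were not called. In wild-type cells Cebpa fell by 1.19 on the log2 scale, and Spi1 was lower by 0.58, close to the fold threshold. Their differences were 1.04 (adjusted p = 9.36e-14) and 0.78 (adjusted p = 1.03e-12, edgeR). For Itgam, Apoe, Mmp8, Msr1 and Tnf no difference was called, with values between −0.17 and 0.10 and adjusted p between 0.264 and 0.867, which does not show that they changed alike.

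R35K cells, fitted in their own table, had 184 risen (1.12%) and 703 fallen (4.28%) genes of 16434 over the interval. Of the R35A fallers in that table, 314 of 461 (68.1%) fell in R35K cells, or 44.9% of the R35K fallers, while 35 of 254 risers (13.8%) rose, or 19.1% of the R35K risers. The median log2FC of the R35A fallers was −0.92 in R35K and that of the risers 0.22. Pax5 had −1.16 in R35K, Cd79b −1.41 and Mki67 −1.03, beside −1.01, −1.30 and −0.97 in R35A. Itgam had 0.23 in R35K against 0.82, Tnf 0.17 against 0.98, and Arg1 −0.81 against 1.45. None of these differences was tested.

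**Figure D4:**
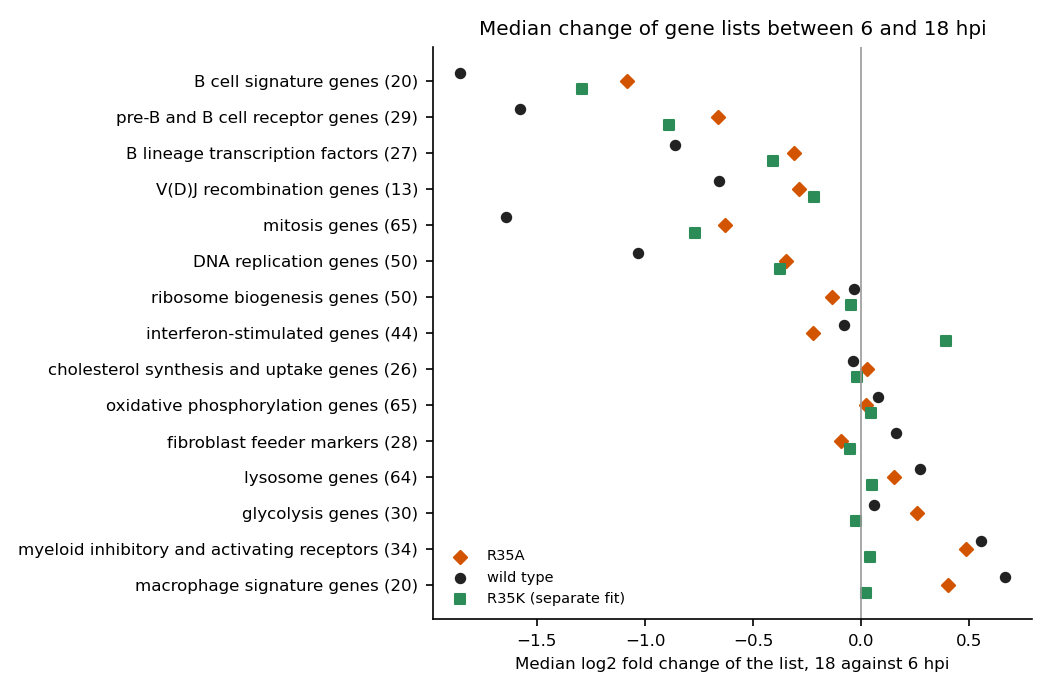
Median log2 fold change of 18 over 6 hpi for 15 gene lists in R35A (orange diamonds), wild-type (black circles) and R35K cells (green squares, fitted separately), with the number of genes tested in R35A in brackets. The B cell and mitosis lists have negative medians in all 3 constructs, at −1.08 and −0.63 in R35A, and the macrophage list lies at 0.40 in R35A against 0.66 in wild type and 0.02 in R35K.

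Most of the called genes had moved before, between 0 and 3 hpi, an interval that shares no library with 6 to 18 hpi and in which 36.8% of all genes were called. Of the 258 risers, 204 (79.1%) had risen from 0 to 3 hpi, against 17.9% of all genes, and 9 had fallen. Of the 469 fallers, 363 (77.4%) had fallen, against 19% of all genes, and 44 had risen. Fcrls belongs to the genes that turned: from 0.12 CPM at 0 hpi it rose to 16.5 CPM by 1 hpi, then fell to 7.02 CPM by 6 hpi and 1.88 CPM by 18 hpi, and stood at 102.2 CPM at 120 hpi. Cx3cr1 followed a like course, from 14.1 CPM at 1 hpi to 5.92 at 18 hpi and 220.9 at 120 hpi. Olr1, by contrast, was at 83.7 CPM at 1 hpi and 1.34 CPM at 120 hpi. 

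The risers differed in how far from their final level they were at 18 hpi. Apoe reached 612.4 CPM at 18 hpi and 15060 CPM at 120 hpi, and Lyz2, flat over the interval, stood at 20630 CPM at 120 hpi. Itgam was at 574.1 CPM by then. Others were higher at 18 hpi than at 120 hpi, such as Cxcl3 (37.9 against 16.0 CPM), Ppbp (75.3 against 11.8 CPM), Bhlhe40 (841.4 against 383.6 CPM) and Gapdh (49.0 against 7.47 CPM). These are means of 2 libraries.

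**Figure D5:**
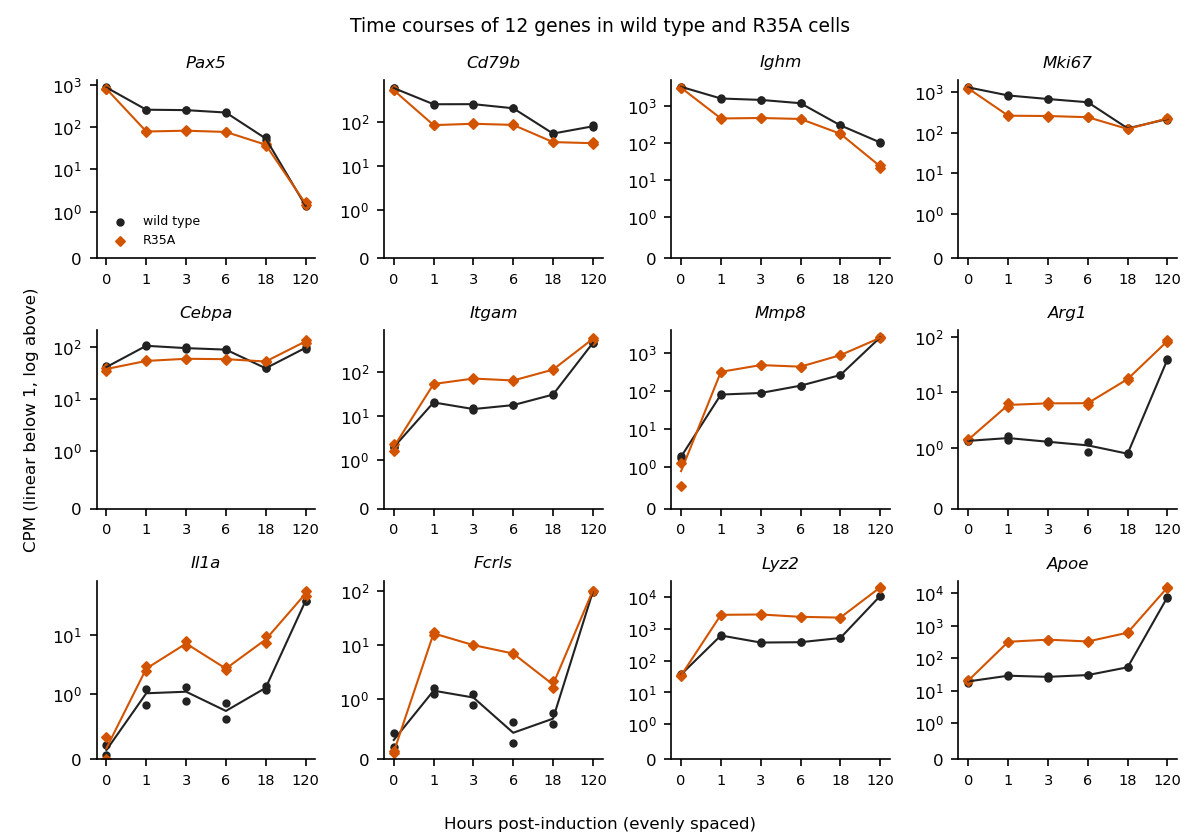
CPM of 12 genes at the 6 sampled timepoints from 0 to 120 hpi in wild-type (black) and R35A cells (orange), each point 1 library and lines through the means of 2, with an axis that is linear below 1 CPM and logarithmic above it and evenly spaced timepoints. In R35A cells Pax5 steps down from 0 to 1 hpi, stays level to 6 hpi and falls again by 18 hpi, and Fcrls falls from 1 to 18 hpi before it rises.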

How the data were processed

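RNA-seq counts were analysed for 36 libraries, 2 for each of 18 combinations of construct and timepoint, grouped by their titles. Per the study's methods, the authors prepared stranded polyA libraries, aligned 50 bp reads to mm10 with STAR 2.5.0a, counted them on genes, and normalized with DESeq2 1.14.1. The annotation release and strand column are not given in the sources used here, so overlapping genes cannot be told apart. The deposited count tables hold whole reads for 40354 genes. The deposited log2 tables hold log2 of the size-factor-scaled count plus 1, were recovered from the counts, and were not tested. No column of authors' comparisons was present and 0 sample columns were left unused.

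Counts were fitted with edgeR 4.0.16 (R 4.3.3) over the 24 wild-type and R35A libraries in 12 groups, with filterByExpr (16988 genes), TMM factors and quasi-likelihood F tests. R35K (12 libraries, 16434 genes) was fitted alone, and nothing was tested between tables. Calls needed p up to 0.05 after Benjamini-Hochberg adjustment and a log2 fold change of at least 0.5849625 in either direction. SEs were derived from the F statistic, and CPM are TMM-scaled. A gene was at the detection floor in a group whose libraries all held at most 3 of its counts, which covers counting error only. Nothing in the labels says that replicates came from separate animals. The study's methods call them biological, and p-values measure the spread between these libraries. Replicate numbers gave no sign of pairing between R35A at 6 and 18 hpi, where the correlation of replicate deviations was −0.0079. Over 66 pairs of groups its median was −0.0048, with 5 above 0.1. The highest was 0.325, between wild type at 0 and 6 hpi, and it was 0.16 between wild type at 6 hpi and R35A at 18 hpi. Whether some groups shared a batch was not tested.

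Symbols that are Gm numbers, Rik clone names, Ensembl numbers or pseudogene names were left out of the rankings. Named genes were, among called genes with non-overlapping groups and at least 5 CPM, the 10 highest and 10 lowest log2 fold changes and the 5 largest gains and losses in CPM. To these came up to 3 called members per list and direction with at least 1 CPM, or the most abundant member of a list without a call, the 5 highest and lowest called differences from wild type with at least 5 CPM in a group, and Cebpa, Spi1, Carm1, Pax5, Itgam and Lyz2. Some genes that the rule takes are not reported here. Other list members were named after their values were seen. The interval and the 40 gene and 13 marker lists were chosen with earlier results of these data known. Coordinates are from GENCODE vM21 on mm10, which holds 97.07% of the symbols. Alternatives were a DESeq2 1.42.0 Wald test, its size factors, other filters and thresholds, smaller fits, a replicate block and leaving out libraries. The fit was tested on simulated data.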

Additional observations from a re-analysis of the deposited data

Results flagged for a closer look

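The change from 6 to 18 hpi differed between R35A and wild-type cells in 1435 genes by the test of the difference itself. Given here are those at both ends, with at least 5 CPM in a group and the symbol limits stated for named genes. Values are differences in log2 fold change, R35A minus wild type. The 3 highest, CT010467.1 at 4.98, Mir6236 at 4.75 and Lars2 at 3.89, rest on the wild-type library of replicate 1 at 6 hpi. Without that library they were at 0.75, 0.69 and 0.46, with adjusted p of 0.225, 0.389 and 0.354 (edgeR). CT010467.1 was at 7093 CPM in that library and at 119.7 to 253.2 CPM in the 4 R35A libraries.

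Gldc, which encodes a subunit of the glycine cleavage system, had a difference of 2.28 (SE 0.18, adjusted p = 1.15e-14). Its R35A libraries held 9.65 and 9.28 CPM at 6 hpi and 6.89 and 5.54 CPM at 18 hpi, and its wild-type libraries 29.8 and 26.3 CPM and then 3.58 and 3.91 CPM. Steap4, a metalloreductase gene, had a difference of 2.23 (SE 0.35, adjusted p = 1.1e-06).

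Fcrls had the lowest difference, −2.52 (SE 0.48, adjusted p = 4.13e-05), and was at 0.44 CPM at 6 hpi and 0.68 CPM at 18 hpi in wild-type cells, so the wild-type side rests on few reads. Prtn3, the proteinase 3 gene of granule precursors, rose in both constructs, to 3.84 and 3.57 CPM in R35A and to 14.6 CPM in wild-type cells, with a difference of −1.81 (adjusted p = 0.000747). Abca9, a lipid transporter gene, Hspa1a, an inducible heat shock protein gene, and Upk3b had differences of −1.46, −1.44 and −1.40. Their means were lower at 18 hpi in R35A and higher in wild-type cells, with log2 fold changes of −0.49, −0.48 and −0.70 in R35A and 0.97, 0.96 and 0.70 in wild type.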

How the results depend on the processing

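For R35A, 258 genes rose and 469 fell. A 2-fold threshold gave 78 and 192, and no fold threshold 1785 and 1638. For the difference from wild type, with 1099 higher and 336 lower, the same thresholds gave 445 and 117, and 2396 and 2020, and unadjusted p gave 537 lower. The other settings stayed within 1.5 times these counts. Of the 727 called genes, 557 were among the 573 of a DESeq2 Wald test and 713 among the 715 with the replicate block, which changed no call of a named gene. The R35A block counts were 252 and 463, those of the difference 1088 and 330, and those of R35K 181 and 695. Leaving out 1 library gave 208 to 223 risers and 391 to 410 fallers in R35A, 990 to 1069 and 248 to 297 for the difference, and 159 to 185 and 591 to 627 for R35K. Fits with a lone library in a group assume that it varies like the others. Of 128 named genes, 7 lost the call with DESeq2's test, 3 without the low-count filter and 66 at 2-fold. Depth limits genes of a few CPM: in the 4 libraries, 56 list genes were at or under 3 counts.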

Other observations

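Of 25 cytokine receptor and related genes tested, 2 rose, Csf3r and Il1r2, and 2 fell, Kit and Esr1. Of these Kit is a receptor for a factor of the medium. Il7r, Il3ra, Flt3 and Csf2rb were not called, with log2 fold changes of 0.10, 0.01, −0.43 and 0.23. Csf1r, the receptor for mCSF-1 and one of the monocyte and macrophage markers, was not called either. Il1r2, the decoy receptor for interleukin 1, went from 16.7 and 15.4 to 24.3 and 24.9 CPM (log2 fold change 0.62, adjusted p = 1.39e-07) and was at 0.56, under the fold threshold, without replicate 2 at 6 hpi. Complement genes had 2 risers of 14 (14.3%), C5ar1 and the properdin gene Cfp, which went from 76.8 and 76.3 to 125.7 and 120.7 CPM. Toll-like receptors and adaptors had 2 risers (8.33%) and 1 faller (4.17%) of 24. The risers were Tlr1 (7.67 and 6.69 to 14.4 and 14.0 CPM) and Tlr3 (3.00 and 3.06 to 4.75 and 4.71 CPM). The faller, Tlr12, had 10 and 10 reads at 6 hpi and 2 and 0 at 18 hpi, and so ended at the detection floor of 3 counts.

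Eomes, a T-box factor of natural killer and T cells, went from 2.52 and 2.45 to 0.91 and 1.04 CPM, while Ncr1, Nkg7, Cd3e and Cd3g had no read. Nos2, the inducible nitric oxide synthase, was called at a log2 fold change of 1.81 from a mean of 0.29 CPM at 6 hpi. Pecam1, an adhesion receptor of endothelium and hematopoietic precursors, went from 15.0 and 17.1 to 8.59 and 7.98 CPM. The megakaryocyte list summed to 174.7 and 175.9 CPM at 6 hpi and 240.0 and 238.8 CPM at 18 hpi, and its called member was the platelet chemokine Ppbp.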
